A study of Mus musculus with 12 samples.

Results

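The comparison described here set the colon of Spdef knockout (KO) mice against the colon of Spdef heterozygous (HET) mice, on 4 of the 12 expression arrays of a study of stomach and colon. Its arrays were assigned by their tissue and genotype labels, as colon KO 1 and KO 2 against colon HET 1 and HET 2. The comparison was chosen with earlier results of these data known. All came from untreated C57BL/6 mice aged 16 weeks, and RNA was drawn from frozen tissue and read on Affymetrix HT Mouse Genome 430 arrays, on which a set of short probes reads each transcript. The HET arrays are the controls, so both groups carried at least a single disrupted copy of Spdef, and no wild type colon array entered the normalization, the filter or the spread. The labels give neither the construction of the knockout allele, nor the sex of the mice, nor whether each array stands for its own animal, so p-values cover the variation among these 4 arrays, which may be technical. The 4 stomach arrays of the same genotypes, 2 KO and 2 HET from mice of the same strain and age, are set beside the colon below. In 1 alternative these arrays and 2 stomach arrays of wild type mice of that strain and age also entered the normalization and the spread of the colon test.

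Spdef is a transcription factor of the ETS family that is active in mucus-producing cells. In the intestine the goblet cell descends from Atoh1-positive progenitors of the crypt, and Spdef acts in its late maturation, when the cell builds a large endoplasmic reticulum, decorates mucins with O-linked sugar chains and packs them into granules. Creb3l4 belongs to the OASIS family of transcription factors, which sit in the membrane of the endoplasmic reticulum and are cut free in the Golgi apparatus by the Mbtps1 and Mbtps2 proteases.

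The colon of KO mice read lower than that of HET mice for a small group of genes led by Creb3l4, Rap1gap, Tesc and Cgref1. The goblet cell products Tff3 and Zg16, picked after their values were seen, read nearly alike by their brightest probe sets. Both sit near the top of the intensity range. Others, such as Retnlb, parted the KO arrays, and of 25 goblet cell genes tested, 21 read lower. Levels are given as log2(intensity + 16), so a difference of 1 is a doubling, and differences of dim genes are understated. After a filter on dim genes, 7739 of 11807 genes were tested with limma. No gene passed an adjusted p of 0.05 (0% of the genes tested), and 340 had an unadjusted p under 0.05 (4.39%) where 387 would be reached by chance. Of these, 199 were lower (2.57%) and 141 higher (1.82%) in KO. The smallest adjusted p was 0.191, for Creb3l4, with the spread estimated on 2 residual degrees of freedom. Over all genes tested the median KO minus HET difference was 0.02.

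A stricter description, which needs no estimate of the spread, asks for which genes both KO arrays lay at least 1 log2 unit beyond both HET arrays. This held for 16 genes on the low side (0.207% of the genes tested) and for 1 on the high side (0.0129%). The low side held Creb3l4, Rap1gap, Tpd52l1, Tesc, Cgref1, St6galnac1, Retn, Cyp2e1, Slc41a2, Mt3, Adam18, Thrsp, Slc16a7, Hgfac, Scd1 and Tpsg1. The high side held Igkv6-15 alone, a variable segment of the immunoglobulin kappa light chain. Without a minimum distance, both KO arrays lay below both HET arrays for 1173 genes (15.2%) and above them for 1543 (19.9%). In whole tissue, fewer cells of a type and less RNA per cell cannot be told apart, and this holds for each difference below.

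**Figure D1:**
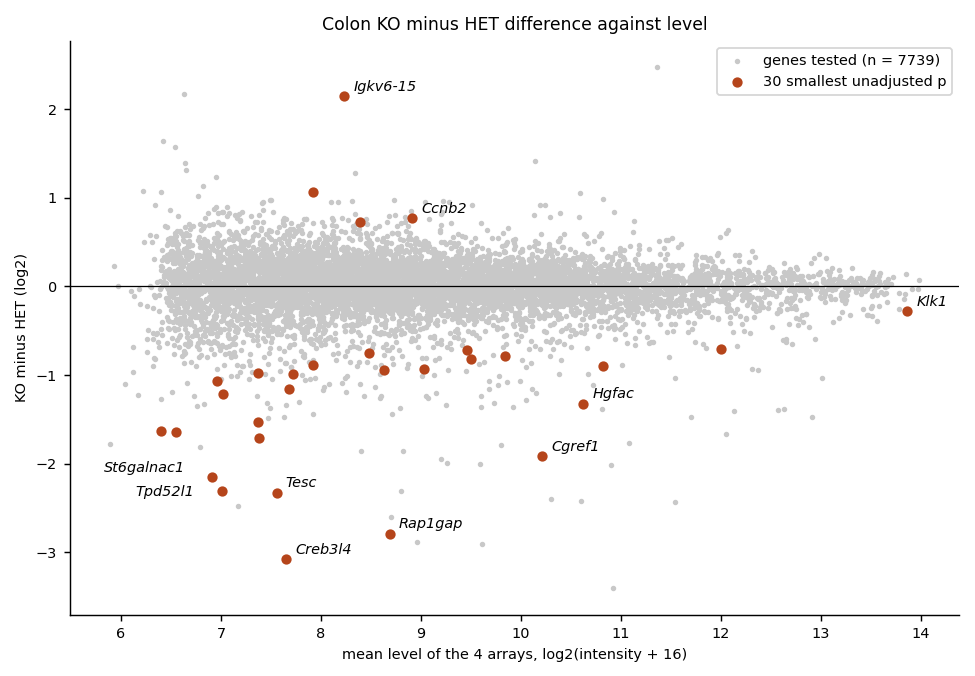
KO minus HET difference (log2) of every gene tested in colon against its mean level over the 4 arrays; the 30 genes with the smallest unadjusted p are marked in red. The marked genes with the largest differences, Creb3l4 at -3.08 and Rap1gap at -2.79, lie far below 0, whereas Klk1 was marked at a difference of only -0.28.

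The arrays were checked before the genes were read. All 4 carried the colonic carbonic anhydrase Car1 at 13.34 to 13.71, and the small-intestinal Fabp6 (at most 6.62) and the gastric Atp4a and Pgc were at or near background. Of 9 genes on the array from a small intestine list, 3 did reach the filter. They were Slc10a2, given below, Rbp2 at 6.75 to 7.59, and Apoc3. Apoc3 read 7.53 and 7.32 in HET, 7.69 in KO 1 and 5.63 in KO 2. The KO arrays were less alike than the HET arrays: 588 genes (7.60%) differed by at least 1 between KO 1 and KO 2, against 89 (1.15%) between HET 1 and HET 2. Xist, the noncoding RNA of the inactive X chromosome, read 12.67 and 12.58 in HET, 12.78 in KO 1 and 5.65 in KO 2. The Y-linked Eif2s3y stayed between 4.07 and 4.58 on all 4 arrays, near background. Hoxb13, a gene of the distal colon, read 4.38 in HET 1, 8.28 in HET 2, 4.30 in KO 1 and 10.83 in KO 2, and Aqp8, a water channel, read 9.10, 12.30, 8.85 and 12.15 in the same order. HET 1 and KO 1 thus lay low for both genes and HET 2 and KO 2 high. Slc10a2, the bile acid importer, read 10.62 and 10.19 in HET, 10.80 in KO 1 and 4.24 in KO 2. KO 1 stood apart in its turn for Retnlb, a goblet cell product, with 10.42 against 13.51 and 13.79 in HET and 13.92 in KO 2. For Creb3l4 the KO arrays differed by less than 0.1. The part of position along the colon, sex and tissue composition in the results below was not tested, and values without KO 1 or KO 2 are given beside the lists.

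**Figure D2:**
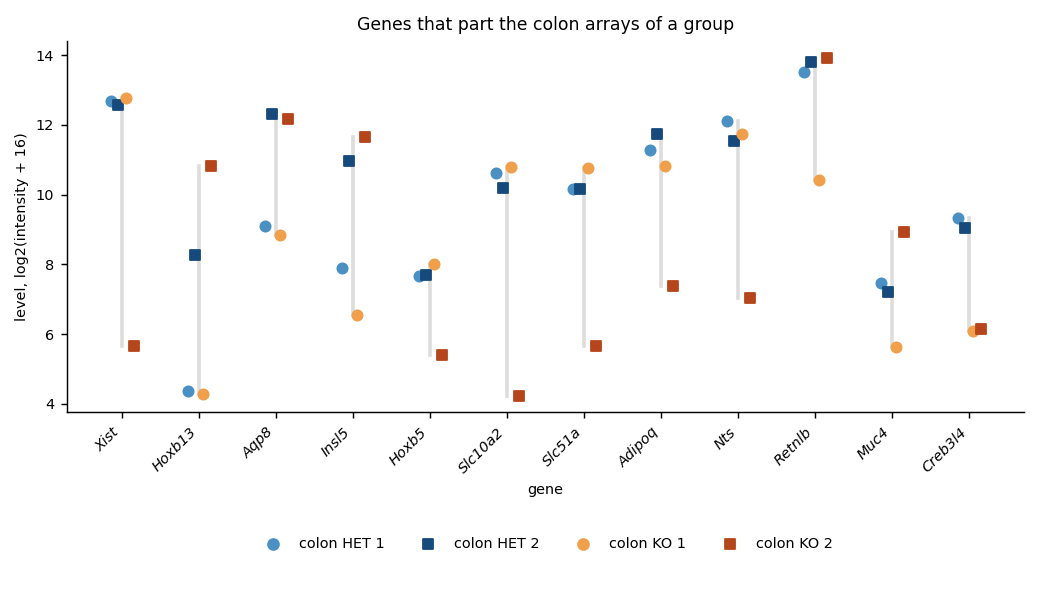
Level, as log2(intensity + 16), of 11 genes that part arrays of the same group, and of Creb3l4, on each of the 4 colon arrays (circles, number 1; squares, number 2; blue, HET; orange and red, KO). KO 2 stands alone for Xist, Slc10a2, Slc51a, Adipoq and Nts and KO 1 for Retnlb, while Hoxb13, Aqp8 and Insl5 are low in both arrays numbered 1; the Creb3l4 points of KO 1 and KO 2 nearly coincide at 6.08 and 6.15.

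Spdef itself, on chromosome 17, was read by 1 probe set, at 10.28 and 9.84 in HET and at 9.12 and 9.29 in KO. Both KO arrays lay below both HET arrays, and both were still well above the filter level of 6.54. The difference was -0.86 (SE 0.21), and it did not pass the threshold in limma (adjusted p = 0.93). Where the probes lie relative to the disrupted part of the gene is not given in the sources used here, so signal in KO checks the labels only in part. Over the 14 alternatives the difference ran from -1.08 to -0.63 and passed in none of them. Atoh1, the transcription factor that commits progenitors to the secretory lineage, read 10.57 and 10.88 in HET and 10.08 and 10.80 in KO, so that 1 KO array lay within the HET range.

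The 250 bases upstream of the first listed transcription start of the 4 leading genes are shown because these genes read low together on both KO arrays and because ETS factors bind a short core. They are RefSeq sequences of GRCm38.p6, written 5′ to 3′ on the strand of the gene. Capitals mark GGAT, the core letters of the sequence Spdef is known to prefer, on either strand (ATCC where it lies on the other strand). Creb3l4 (chr3:90243513-90243762, minus strand) has 3 starts listed and Cgref1 (chr5:30945481-30945730, minus strand) has 2. Rap1gap (chr4:137664476-137664725, plus strand) has 7 starts, of which only the first is shown, and Tesc (chr5:118027493-118027742, plus strand) has 1.
Creb3l4: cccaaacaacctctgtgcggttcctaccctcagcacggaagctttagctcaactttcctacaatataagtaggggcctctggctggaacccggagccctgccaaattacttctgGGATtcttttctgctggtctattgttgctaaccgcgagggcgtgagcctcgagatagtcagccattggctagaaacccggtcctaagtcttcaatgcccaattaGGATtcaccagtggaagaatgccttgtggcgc
Cgref1: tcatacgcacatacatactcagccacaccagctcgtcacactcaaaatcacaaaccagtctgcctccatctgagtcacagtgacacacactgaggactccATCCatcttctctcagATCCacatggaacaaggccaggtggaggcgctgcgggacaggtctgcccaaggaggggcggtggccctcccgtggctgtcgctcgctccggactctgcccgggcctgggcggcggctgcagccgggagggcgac
Rap1gap: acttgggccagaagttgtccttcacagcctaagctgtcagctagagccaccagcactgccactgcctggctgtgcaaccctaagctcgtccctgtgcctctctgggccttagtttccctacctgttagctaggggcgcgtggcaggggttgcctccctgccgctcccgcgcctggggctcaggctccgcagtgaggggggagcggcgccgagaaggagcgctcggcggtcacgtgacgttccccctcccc
Tesc: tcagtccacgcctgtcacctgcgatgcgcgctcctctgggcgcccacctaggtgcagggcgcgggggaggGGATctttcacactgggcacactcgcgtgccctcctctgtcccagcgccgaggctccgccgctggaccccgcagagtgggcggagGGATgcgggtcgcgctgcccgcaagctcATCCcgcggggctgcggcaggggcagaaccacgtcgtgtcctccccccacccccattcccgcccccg
The core GGAT occurred 2 times in the Creb3l4 window, 2 times in that of Cgref1, 3 times in that of Tesc and 0 times in that of Rap1gap. Of all 32851 promoter windows of the same length, 74.1% held it, so these counts do not set the windows apart. The longer CCGGAT (4.94% of all windows), the general ETS letters CCGGAA (12.0%) and TGACGTG, a target sequence of OASIS factors (1.65%), were searched on both strands and were found in none of the 4. A missing match says only that these letters are not in this window.

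Creb3l4, on chromosome 3, read 9.33 and 9.05 in HET and 6.08 and 6.15 in KO. Both KO arrays lay under the filter level, so the HET level was at least 6.27-fold higher. The measured difference was -3.08 (SE 0.19), with an unadjusted p of 2.47e-05 and an adjusted p of 0.191 in limma. It was the smallest p of all genes tested. Rap1gap, on chromosome 4, encodes the GTPase-activating protein that switches the small GTPase Rap1 off. It read 10.19 and 9.98 in HET and 6.95 and 7.64 in KO. The difference of -2.79 (SE 0.28), 6.91-fold, had an adjusted p of 0.59 in limma.

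Tesc and Cgref1 both lie on chromosome 5 and both encode proteins with EF-hand calcium-binding loops. Tesc encodes tescalcin, a partner of sodium/proton exchangers, and read 8.93 and 8.51 in HET and 6.67 and 6.11 in KO. With the KO mean under the filter level, HET was at least 4.51-fold higher (difference -2.33, SE 0.28, limma adjusted p = 0.93). A second probe set of Tesc gave -2.06. Cgref1, which encodes a secreted protein linked to cell adhesion and growth, stayed bright in both groups, at 11.16 and 11.19 in HET and 9.07 and 9.44 in KO. Its difference was -1.92 (SE 0.18), 3.78-fold, with an adjusted p of 0.59 in limma, and a second probe set gave -1.78. For all 4 genes the gap between the groups was several times the gap within either group.

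These 4 genes were called when the spread was estimated from more arrays. With the 6 stomach arrays added, wild type included, so that 10 arrays without wild type colon set the normalization and the spread, 8 genes passed (0.103% of the genes tested), all lower in KO. The adjusted p in limma was then 0.000744 for Creb3l4 and for Rap1gap, 0.00169 for Tesc, 0.00207 for Cgref1 and 0.00328 for Tpd52l1. Hgfac and Slc41a2 followed at 0.0213 each and Slc16a7 at 0.0252. The differences themselves hardly moved, with Creb3l4 at -3.05 and Rap1gap at -2.81. They rest on the same 4 colon arrays, so these calls are no independent support. The shared spread also assumes that the colon KO arrays vary like the others, although they were less alike than the colon HET arrays. The notes to the values name a different algorithm for the stomach KO arrays than for these colon arrays. The pooled normalization and spread thus mix algorithms, and the effect of this on the calls was not tested. Leaving out a KO array, which leaves 1 KO array assumed to vary like the HET pair, gave 193 genes without KO 1 (2.54%) and 16 without KO 2 (0.211%). Creb3l4, Cgref1, Rap1gap and Hgfac passed under both, and Tesc passed without KO 1 (limma adjusted p = 0.0223) but not without KO 2 (0.0818).

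**Figure D3:**
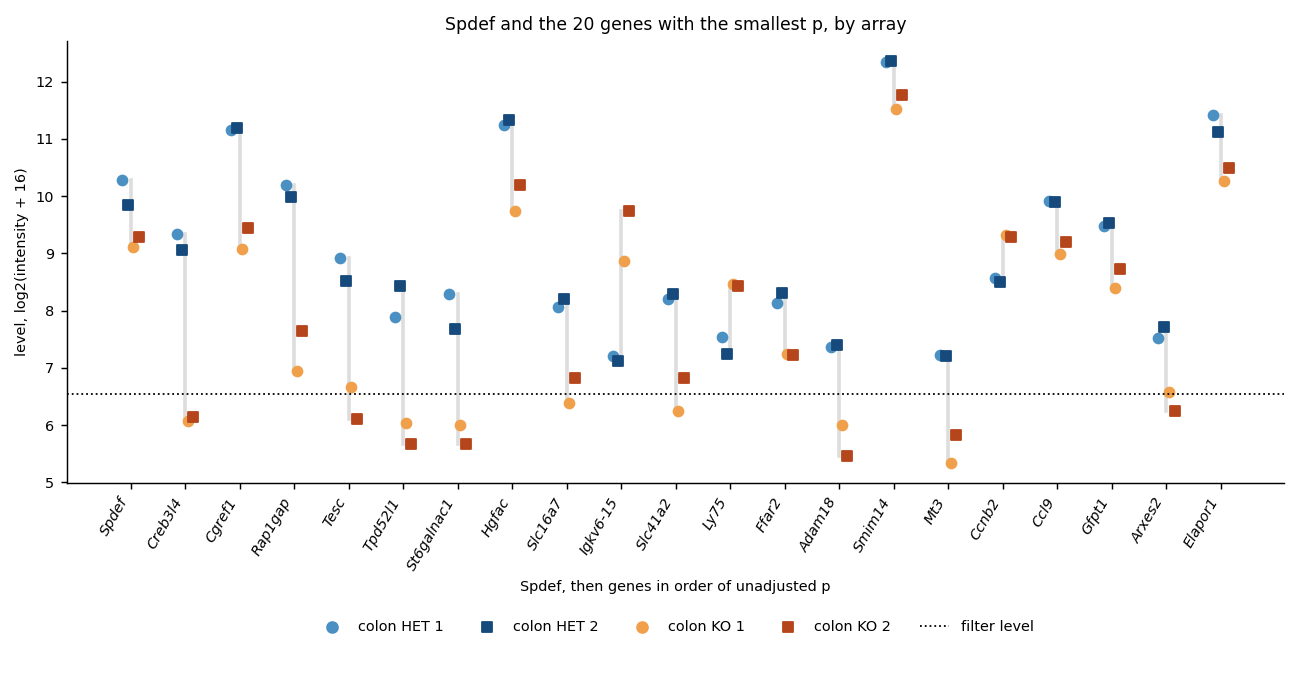
Level, as log2(intensity + 16), of Spdef and of the 20 genes with the smallest unadjusted p on each colon array (blue, HET; orange and red, KO); the dotted line is the filter level. In every column the KO points lie on one side of both HET points, since small p chose the genes, and for Creb3l4, Tpd52l1, St6galnac1, Adam18 and Mt3 both KO points lie under the line.

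Beyond these, the 30 genes with the smallest p held 26 that read lower and 4 that read higher in KO, each with an adjusted p of 0.93 in limma from the fourth gene on. They are described by their values, since p chose them. Tpd52l1, a coiled-coil protein of the D52 family, read 7.89 and 8.43 in HET and 6.04 and 5.67 in KO (difference -2.30, SE 0.29), at least 3.06-fold higher in HET. Hgfac, the serine protease that activates hepatocyte growth factor, was bright on all arrays, at 11.24 and 11.33 against 9.74 and 10.18 (-1.32, SE 0.20). For both genes the groups stood clear of each other, and Hgfac was measured above background on all 4 arrays.

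Several transporters and receptors were on the low side. The magnesium transporter gene Slc41a2 read 8.19 and 8.28 in HET and 6.24 and 6.82 in KO, at least 3.24-fold higher in HET. The monocarboxylate transporter gene Slc16a7 read 8.06 and 8.21 against 6.39 and 6.82 (-1.53, SE 0.23). Ffar2, the receptor for short-chain fatty acids, read 8.12 and 8.30 against 7.24 and 7.22 (-0.99, SE 0.17), and its second probe set gave -0.94. In each of these both KO arrays lay below both HET arrays, and for Ffar2 they nearly coincided.

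Several membrane proteins were also among the 30. Ergic1, of the compartment between endoplasmic reticulum and Golgi, read 9.17 and 9.04 in HET and 7.97 and 8.35 in KO (-0.94, SE 0.19). Elapor1, a membrane protein of endosomes and lysosomes, read 11.42 and 11.12 against 10.27 and 10.48 (-0.90, SE 0.17), and Smim14, a small membrane protein, 12.34 and 12.36 against 11.53 and 11.76 (-0.71, SE 0.13). Nsg1, an endosomal membrane protein best known from neurons, read 7.80 and 7.90 against 6.98 and 6.77 (-0.98, SE 0.19), and Kcnip4, an EF-hand partner of potassium channels, 7.42 and 7.56 against 6.48 and 6.37. A second probe set of Kcnip4 gave -0.53. In both genes KO 2 was slightly the lower array.

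Enzymes and signalling genes made up much of the remainder. Guk1, guanylate kinase, read 9.82 and 9.80 in HET and 9.17 and 9.02 in KO (-0.72, SE 0.15), and Gde1, a glycerophosphodiesterase, read 10.11 and 10.36 against 9.40 and 9.49 (-0.79, SE 0.16). Rgs17, a regulator of G-protein signalling, read 8.83 and 8.87 against 8.19 and 8.01 (-0.75, SE 0.16). Agt, the gene of angiotensinogen, read 8.53 and 8.20 against 7.41 and 7.55 (-0.89, SE 0.19). Hilpda, a protein of lipid droplets, was lower in KO 1 than in KO 2, at 6.80 and 7.40 against 8.26 and 8.26 in HET (-1.16, SE 0.25). Adam18, of a protease family known from the testis, and Mt3, a metallothionein, were dim in both KO arrays, and HET read at least 1.78-fold higher for Adam18 and at least 1.59-fold higher for Mt3. The others on the low side were Arxes2 and Klk1, with Ccl9, Gfpt1 and St6galnac1 described below. Klk1, a kallikrein of a family of near-identical genes whose probes may read several members, had the smallest difference of the 30, at -0.28.

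On the high side, Igkv6-15 read 7.20 and 7.11 in HET and 8.86 and 9.74 in KO (2.14, SE 0.32), and a second, dim probe set of it gave -0.48. Ly75, an endocytic receptor of dendritic cells, read 7.54 and 7.24 against 8.46 and 8.43 (1.06, SE 0.18). The mitotic genes Ccnb2 and Cenpf completed the 4, with Ccnb2 at 8.56 and 8.50 against 9.31 and 9.28 (0.77, SE 0.14).

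Gene lists of cell types and processes, chosen with earlier results of these data in view, were described by their counts and medians, without a test of the list. No member of any list passed the adjusted threshold in limma. For the goblet cell list, all 25 of the genes on the array were tested: 21 read lower and 4 higher, the median difference was -0.49 beside 0.02 for all genes, and 9 were lower at an unadjusted p under 0.05 (background 2.57%). Both KO arrays lay below both HET arrays for 13 of the 25 (background 15.2%). Creb3l4, Rap1gap and Spdef are members, so part of this count was known. The list mean was 11.01 and 11.08 in HET, 9.89 in KO 1 and 10.75 in KO 2, so that KO 1 lay far lower than KO 2. The median was -0.95 without KO 2 and -0.06 without KO 1.

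Members of the goblet list differed in which KO array was low. St6galnac1, the sialyltransferase that caps the first sugar of mucin chains, read 8.29 and 7.68 in HET and 5.99 and 5.68 in KO, low on both (-2.15, SE 0.31, at least 2.72-fold higher in HET). The chemokine gene Ccl9 read 9.92 and 9.90 against 8.98 and 9.19 (-0.82, SE 0.16), and a second probe set gave -1.21. Tpsg1, a membrane-bound tryptase, read 9.83 and 9.66 against 7.15 in KO 1 and 8.64 in KO 2. Slc12a8, a solute carrier, read 10.41 and 10.37 against 8.57 and 9.57, again lowest in KO 1. Foxa3, a forkhead factor of secretory cells, read 9.62 and 9.58 against 8.51 and 9.32.

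Abundant secreted products, chosen after their values were seen, also differed in this. Tff3, the trefoil peptide of goblet cells, read 13.45 and 13.48 in HET and 13.46 and 13.57 in KO (0.05, SE 0.08). Zg16, a lectin of the mucus layer, read 13.85 and 13.92 against 13.73 and 13.86 (-0.09, SE 0.08), and Clca1, a protease of the mucus, 13.59 and 13.70 against 13.54 and 13.76. A second probe set of Zg16 read 13.52 and 13.60 in HET, 12.96 in KO 1 and 13.66 in KO 2. A dimmer probe set of Clca1 parted the KO arrays, at 10.70 and 10.83 in HET, 9.47 in KO 1 and 11.51 in KO 2. Spink4, a small secreted protein as bright as Tff3, read 13.46 and 13.80 in HET, 12.54 in KO 1 and 14.06 in KO 2, low in KO 1 like Retnlb. Agr2, the disulfide isomerase needed for mucin folding, read 13.53 and 13.57 against 13.07 and 13.51 (-0.26, SE 0.16). These genes sit near the top of the intensity range. Muc2, Ang4, Galnt12, B3gnt6, Bcas1 and Atp2c2 were not matched to a probe set with a single gene and have no value here.

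Among 5 tested genes of the OASIS factors and their proteases, Creb3l4 was the only 1 at an unadjusted p under 0.05 (background 2.57%). As a given gene it was known in advance. Creb3 read 9.53 and 9.53 in HET and 9.48 and 9.51 in KO, a difference of -0.04 (SE 0.14). Creb3l1 read 10.60 and 10.41 against 9.54 in KO 1 and 10.45 in KO 2, so only KO 1 lay outside the HET range. Creb3l2 read 7.80 and 7.97 against 7.66 and 8.05, around the HET levels. The protease gene Mbtps1 had a difference of 0.10, although a dimmer probe set of it gave -0.64.

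For the endoplasmic reticulum machinery and unfolded protein response, 38 genes were tested, 23 lower and 15 higher, with a median of -0.08 and none at an unadjusted p under 0.05. The list mean was 10.37 and 10.49 in HET, 9.97 in KO 1 and 10.73 in KO 2, on opposite sides of HET, and the median was -0.39 without KO 2 and 0.33 without KO 1. Ern2, the stress sensor of mucus-producing epithelium, had the largest difference of the list and read 9.68 and 9.49 in HET and 8.31 and 9.23 in KO (-0.81, SE 0.34).

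The sugar supply list read lower on both KO arrays, and the mucin O-glycan list, given below, did so mostly in KO 1. In the list of hexosamine and nucleotide sugar supply, 14 of 16 genes were lower, the median was -0.24, and it was -0.27 without KO 1 and -0.25 without KO 2. The list mean was 11.06 and 11.09 in HET and 10.73 and 10.84 in KO. Gfpt1, the rate-limiting enzyme of the hexosamine pathway, read 9.47 and 9.53 against 8.39 and 8.73 (-0.94, SE 0.18). Gfus, the synthase of GDP-fucose, read 10.65 and 10.70 against 9.98 and 10.12 (-0.63, SE 0.14). Slc35a1, which carries CMP-sialic acid into the Golgi, read 11.52 and 11.68 against 10.80 and 11.13 (-0.64, SE 0.17). A second, bright probe set of Slc35a1 gave -0.34, with 11.27 in KO 2 against 11.42 and 11.41 in HET. A dim probe set of Gfpt1 gave 0.18. Gfpt1, Gfus and Slc35a1 were the 3 of 16 members at an unadjusted p under 0.05 (background 2.57%). Without overlap between the groups were 5 of 16 (background 15.2%).

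In the mucin O-glycan list, 19 of 22 genes were lower with a median of -0.30, 4 of them at an unadjusted p under 0.05 (background 2.57%) and 7 without overlap (background 15.2%). The mean was 9.77 and 9.87 in HET, 9.14 in KO 1 and 9.65 in KO 2, and the median was -0.46 without KO 2 and -0.12 without KO 1. Galnt6, which starts O-linked chains, read 9.03 in HET 1, within 0.05 of that in HET 2, and 8.59 and 8.01 in KO (-0.72, SE 0.24). St3gal4, a sialyltransferase, read 8.66 and 8.63 against 6.16 in KO 1 and 8.25 in KO 2. Gcnt3, which branches mucin chains, was low in KO 2 instead, at 9.86 against 11.28 in KO 1 and 11.61 and 11.31 in HET.

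Granule release genes, 9 tested, had a median of -0.49, which was -0.81 without KO 2 and 0.06 without KO 1. Rab3b, a small GTPase of secretory granules, read 7.76 and 8.49 in HET and 6.50 and 7.11 in KO (-1.32, SE 0.36). It was the only 1 of the 9 at an unadjusted p under 0.05 (background 2.57%). Of 7 tested genes of the Rap1 switch, Rap1gap included, 5 read higher in KO and the median was 0.15. Rapgef3, an exchange factor that switches Rap1 on, was the other gene that read lower, at 6.91 and 7.25 in HET and 6.13 and 6.85 in KO. Of 17 genes with EF-hands, 11 read lower with a median of -0.15, and Cgref1, Tesc and Nucb1, a calcium store protein of the Golgi (11.30 and 11.20 against 10.84 and 10.82), were those at an unadjusted p under 0.05 (background 2.57%). That median was -0.01 without KO 1 and -0.07 without KO 2. Cgref1 and Tesc were among the given genes, so their part of the count at that p was known in advance.

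**Figure D4:**
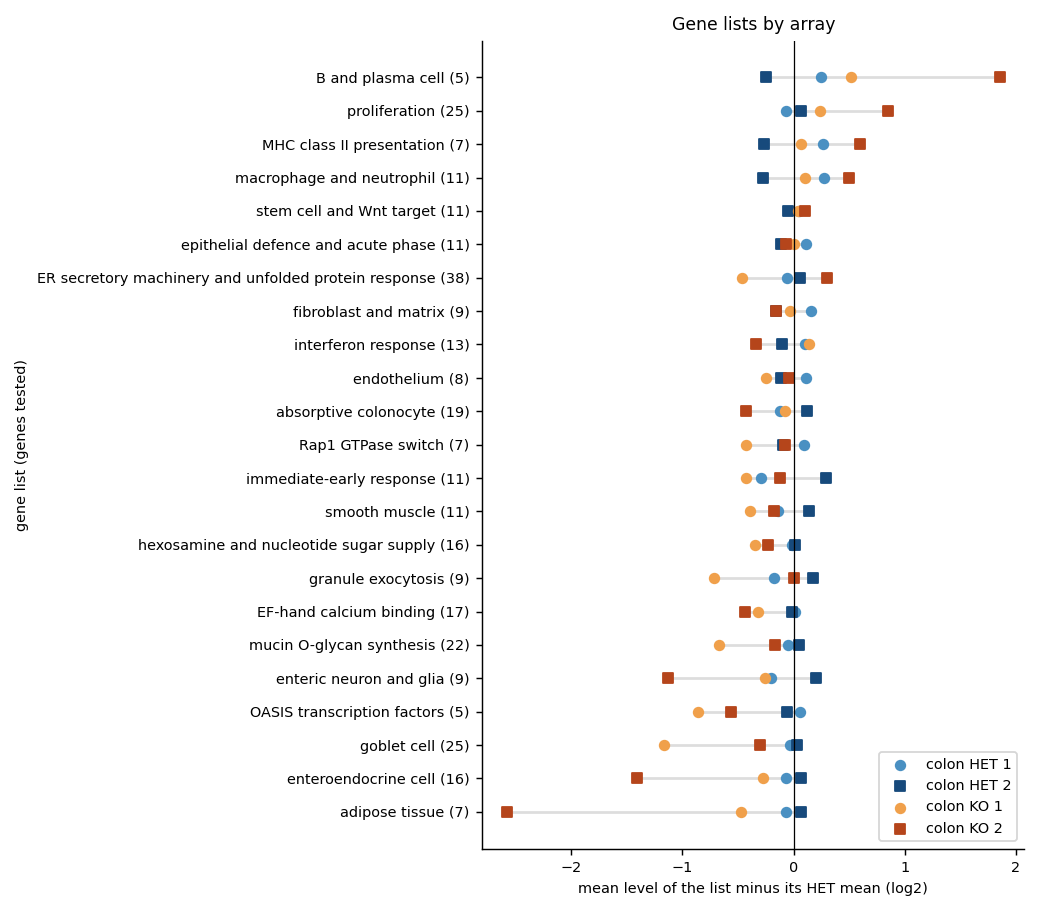
Mean level of each list of at least 5 tested genes on each colon array, minus the mean of the HET arrays (log2; circles, number 1; squares, number 2; blue, HET; orange and red, KO). KO 1 (orange) lies lowest for the goblet, O-glycan, granule and endoplasmic reticulum lists, and KO 2 (red) lies farthest out for the adipose, enteroendocrine, neuron, proliferation and B cell lists.

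Markers of other cells also differed between the groups, mostly through KO 2, and their part in the results above was not tested. In the proliferation list, 24 of 25 genes read higher with a median of 0.62, 10 of them at an unadjusted p under 0.05 (background 1.82%) and 17 without overlap (background 19.9%). The mean was 8.25 and 8.38 in HET, 8.55 in KO 1 and 9.16 in KO 2, and the median was 0.27 without KO 2 and 0.86 without KO 1. Birc5, a mitotic inhibitor of apoptosis, read 8.85 and 8.74 in HET and 9.32 and 9.90 in KO (0.81, SE 0.24). Tpx2, of the mitotic spindle, read 6.95 and 7.25 against 7.71 and 8.17 (0.84, SE 0.25), and a second probe set gave 0.99. The 11 genes of stem cells and Wnt targets had a median of 0.04.

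Enteroendocrine genes read lower in 15 of 16, with a median of -0.89 that was -0.22 without KO 2 and -1.63 without KO 1. Their mean was 9.60 and 9.73 in HET, 9.39 in KO 1 and 8.25 in KO 2. Pcsk1, the protease that processes peptide hormones, was the only 1 of the 16 at an unadjusted p under 0.05 (background 2.57%). It read 9.02 and 8.60 in HET and 8.19 and 7.64 in KO (-0.90, SE 0.27). Nts, the gene of neurotensin, read 12.11 and 11.52 in HET, 11.74 in KO 1 and 7.04 in KO 2, and thus was low on a single array.

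Adipose genes read lower in 7 of 7, with a mean of 10.76 and 10.90 in HET, 10.35 in KO 1 and 8.25 in KO 2, and a median of -1.41 (-0.49 without KO 2, -2.49 without KO 1). Retn, the gene of resistin, read 8.37 and 8.45 in HET and 6.77 and 5.09 in KO. Cyp2e1, Thrsp and Scd1, which adipose tissue also expresses, were among the 16 genes set apart by at least 1, and Cyp2e1 read 11.06 and 11.07 in HET, 9.66 in KO 1 and 6.67 in KO 2. Genes of enteric neurons and glia read lower in 9 of 9, with a mean of 8.13 and 8.54 in HET, 8.08 in KO 1 and 7.21 in KO 2, with a median of -0.60 (-0.29 without KO 2, -1.37 without KO 1). Snap25, of the synaptic release machinery, read 9.10 and 9.34 in HET, 8.64 in KO 1 and 7.33 in KO 2. Of 11 smooth muscle genes, 9 read lower with a median of -0.28, which was -0.36 without KO 2 and -0.14 without KO 1. Actg2, the actin of enteric smooth muscle, read 12.81 and 13.08 in HET and 12.25 and 12.46 in KO (-0.59, SE 0.14), and Pln, the inhibitor of the calcium pump of muscle, 9.09 and 9.74 against 8.61 and 8.60 (-0.81, SE 0.25). Both were low on both KO arrays, whereas Cnn1, calponin, read 12.06 and 12.53 in HET, 11.81 in KO 1 and 12.26 in KO 2, the last within the HET range. For 6 of the 11, both KO arrays lay below both HET arrays (background 15.2%). B and plasma cell genes read higher in 5 of 5, with a mean of 7.79 and 7.30 in HET, 8.06 in KO 1 and 9.40 in KO 2, beside the immunoglobulin segment Igkv6-15. Their median was 0.97, which was 0.22 without KO 2 and 1.39 without KO 1. Of 12 genes of this list on the array, 5 were tested. Cd79a, of the B cell receptor, read 5.86 and 5.34 in HET, 6.56 in KO 1 and 7.93 in KO 2. Ms4a1 read 6.00 and 5.09 in HET, 6.66 in KO 1 and 8.77 in KO 2. Both genes lay under the filter level in HET and were tested only through the KO arrays. Their direction was thus fixed by the filter, and the count, the means and the median of the list include them.

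For the 19 absorptive colonocyte genes the median was -0.20, which was -0.02 without KO 2 and -0.25 without KO 1. The 11 genes of epithelial defence had a median of 0.14 (0.03 without KO 1), the 13 of the interferon response -0.03 (-0.21 without KO 1, 0.07 without KO 2) and the 9 of fibroblasts and matrix -0.13 (0.07 without HET 1). Leaving out HET 2 turned the sign of the next 3 medians. The 7 genes of MHC class II presentation had a median of 0.42, which was 0.07 without KO 2, 0.71 without KO 1 and -0.04 without HET 2. For the 11 macrophage and neutrophil genes 0.19 became -0.07 without HET 2 and 0.55 without HET 1, and for the 11 immediate-early genes -0.32 became 0.08 without HET 2. Lcn2, an iron-sequestering defence protein, read 7.31 and 7.31 in HET and 6.63 and 6.46 in KO. None of the T cell, mast cell and squamous epithelium genes reached the filter.

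The KO minus HET difference was also measured in stomach, on 4 arrays that share no sample with the colon. The notes to the values name a different algorithm for the stomach KO arrays than for the stomach HET arrays, so processing and genotype cannot be told apart there. In stomach, 2 of 7587 genes passed in limma (0.0264%), Creb3l4 and Mup3, a gene of the near-identical major urinary protein family. Creb3l4 read 8.53 and 8.53 in stomach HET and 5.21 and 5.84 in stomach KO, a difference of -3.01 (SE 0.27, limma adjusted p = 0.00638), close to that of -3.08 in colon. It passed in 9 of 11 alternatives, and was lost with no filter (limma adjusted p = 0.139) and without stomach KO 2 (0.0641). The test of the difference between the tissues gave -0.01 (SE 0.35) for Creb3l4, which does not show that the tissues act alike. In both tissues the KO levels lay below the colon filter level of 6.54. Differences of dim genes are understated, so the likeness of the 2 differences is poorly measured.

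Apart from Klk1, the other leading genes tested in stomach differed less there. Klk1 differed more in stomach, at -2.13 (SE 0.50) against -0.28 in colon. The 30 genes were chosen by small p in colon, which by itself favours larger differences in colon. Of the 30 colon genes, 22 were tested there, 20 of them with the same sign, 4 of these at an unadjusted p under 0.05 (stomach background 3.85%): Creb3l4, Cgref1, Hgfac and Klk1. Rap1gap read 8.98 and 9.13 in stomach HET and 8.85 and 8.79 in stomach KO (-0.24, SE 0.16), and Tesc read 11.61, 11.71, 11.71 and 11.58 in the same order (-0.01, SE 0.13). Cgref1 read 9.37 and 9.12 against 8.35 and 8.45 (-0.84, SE 0.17, limma adjusted p = 0.399). The colon difference minus the stomach difference was -2.57 (SE 0.32) for Rap1gap and -2.30 (SE 0.31) for Tesc, each with a limma adjusted p of 0.246, and -1.10 (SE 0.24) for Cgref1. No gene of 8209 passed the test of the difference between tissues in limma (0%), and 293 had an unadjusted p under 0.05 (3.57%), so none is called particular to colon.

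**Figure D5:**
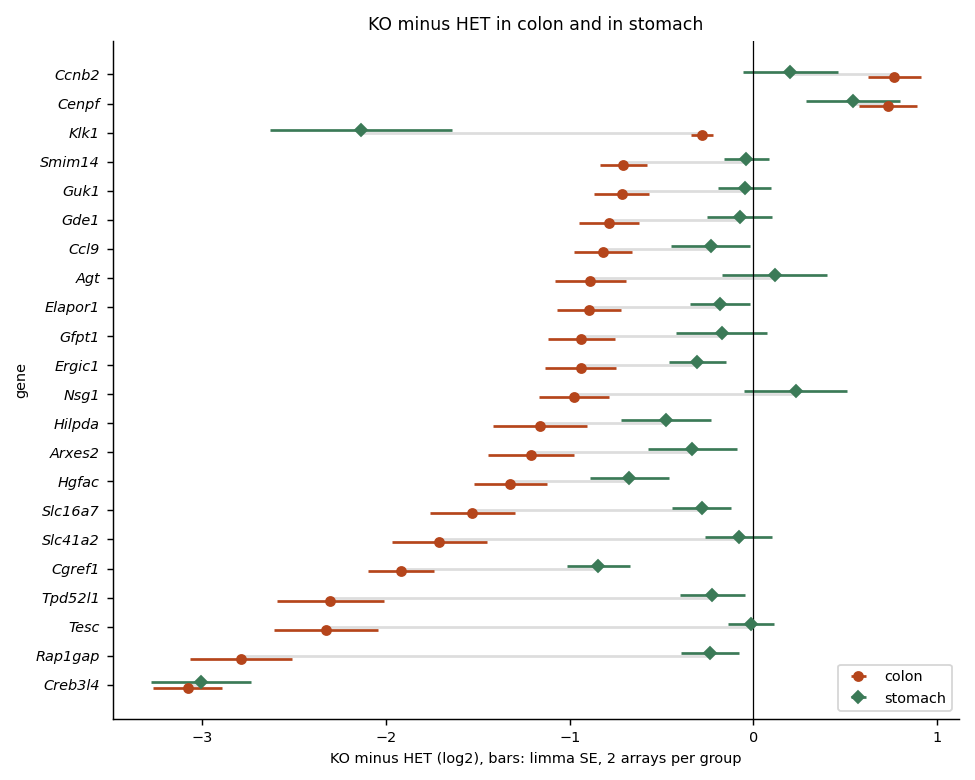
KO minus HET difference (log2) in colon (circles) and in stomach (diamonds) for the 22 of the 30 leading colon genes that were tested in both tissues, with bars of 1 limma SE and 2 arrays per group. Creb3l4 lies near -3 in both tissues, Rap1gap and Tesc lie near 0 in stomach only, and Klk1 lies lower in stomach than in colon.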

How the data were processed

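The authors deposited 1 linear intensity per probe set and array, made with MAS5 for the 4 colon HET and KO arrays and for stomach HET and with RMA for stomach KO, per the submitters' processing notes, which give no version. Of 22716 probe sets, 90 were controls, 18003 had 1 gene, 287 several and 4336 none. Symbols were updated through RefSeq for 17977 and kept for 26. Each of 11807 genes was read by its brightest probe set (4150 had several). Values were taken as log2(intensity + 16), quantile normalized over the 4 arrays, and a gene was tested where at least 2 arrays reached their 40th percentile (6.54, an intensity of 77.3). Where a group mean lay below it, "at least" folds were set against it. Means per group were fitted with limma 3.58.1 (R 4.3.3) with an intensity trend and adjusted by Benjamini-Hochberg at 0.05. The steps were checked on simulated data. Stomach and the tissue difference were fitted likewise.

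The members and the 35 lists (531 entries, 333 tested) were chosen with earlier results of these data known. Named were Spdef, the 4 given genes, the 30 with the smallest p and the 4 tested genes per list that differed most. Agr2, Atoh1, Clca1, Cnn1, Creb3l2, Foxa3, Klk1b9, Nucb1, Pcsk1, Slc12a8, Spink4, Tff3, Wfdc18, Zg16, the genes set apart by at least 1 and those used to compare single arrays were picked once their values were known. The alternatives changed normalization, offset (1 and 64), filter, trend, probe sets, arrays, block and replicates. The number of arrays limits the precision. Figures used Python 3.11.15 and matplotlib 3.10.9.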

Additional observations from a re-analysis of the deposited data

How the results depend on the processing

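With 2 arrays per group, single arrays decide the counts. The colon count of 0 genes past the threshold was 8 with the stomach arrays added, and 0 to 193 when each array was left out, 193 without KO 1 and 16 without KO 2. The colon count of 340 at an unadjusted p under 0.05 was 556 with no filter, 549 with every probe set, 584 with the stomach arrays added and 62 to 1729 when each array was left out. The stomach count of 2 was 1 with an offset of 1, 1 without the trend, 0 with no filter and 0 to 40 when each array was left out. For the difference between tissues the count of 0 became 0 to 109, the highest without colon KO 1. Deviations of arrays of the same number correlated across genes at r = 0.32 in colon and 0.02 in stomach, with 2 pairs each, so the numbers were not taken to pair the samples. With the replicate number as a block the counts were 0 in colon, 22 in stomach and 0 between tissues. Genes dim in KO, such as Creb3l4 and Tpd52l1, could not be tested without a HET array, since then only 1 array reached the filter. Of 876 values for 64 genes, 872 kept their direction. Every alternative reuses the colon arrays, and many of these genes were chosen by small p or large difference. Where the groups did not overlap, leaving out an array could hardly turn the sign, so this count is no independent support. When arrays were left out in turn, Atoh1 ran from -0.64 to 0.084, Mbtps1 from -0.037 to 0.25 and Clca1 from -0.10 to 0.12. The cause of these changes was not tested.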

Other observations

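A further set of genes parted the colon KO arrays and belongs to no comparison above. Among them were 3 genes of enzymes of sterol synthesis. Cyp51 read 10.17 and 10.09 in HET, 9.03 in KO 1 and 10.87 in KO 2. Fdps read 10.64 and 10.87 in HET, 9.17 in KO 1 and 11.05 in KO 2, and Idi1 read 10.51 and 10.57 against 9.63 and 11.57. Slc51a, the basolateral bile acid exporter subunit, read 10.17 and 10.17 in HET, 10.77 in KO 1 and 5.67 in KO 2, low on the same array as the importer Slc10a2. Hoxb5 and Hoxb3 were low in KO 2 as well, at 5.41 against 7.67 to 8.01 and at 5.42 against 6.99 to 7.98 on the other arrays. Muc4, a membrane mucin, read 7.47 and 7.21 in HET, 5.63 in KO 1 and 8.92 in KO 2. These genes were chosen after their values were seen, and each spans the HET levels or rests on 1 array.

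Without KO 2, the 16 genes past the threshold in limma, all lower in KO 1, included Retnlb, Wfdc18 and Klk1b9. Retnlb had the largest difference of the 16, at -3.23, and was not low in KO 2. Wfdc18, a small secreted protein, read 10.49 and 10.89 in HET, 7.94 in KO 1 and 9.85 in KO 2. Klk1b9, of the kallikrein family, read 13.32 and 13.33 in HET, 11.36 in KO 1 and 12.52 in KO 2. Both of these genes were thus low in KO 2 as well, by less than in KO 1.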
